A study of Mus musculus with 9 samples.

Results

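Transcripts of the cadherin, contactin and synaptic adhesion families were compared between the retinae of crushed and control eyes. Members were all genes of the expression table whose symbols begin with Pcdh, or with Cdh, Clstn, Cntn, Nrxn, Nlgn or Lrrtm and a digit, except the endothelial cadherin Cdh5. This gave 105 of 14194 gene entries: 18 cadherins, 11 non-clustered and 57 clustered protocadherins, 3 calsyntenins, 6 contactins, 3 neurexins, 3 neuroligins and 4 LRRTM genes. All members were read out of 1 test that covered every entry of the table.

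The crushed-eye libraries (ONC, n = 5) held ribosome-bound RNA of retinae collected 72 h after optic nerve crush, in which forceps held the nerve for 3 s at a point some 1 mm from the eye. The Control libraries (n = 4) held the same fraction from the fellow eyes of the same mice, which had either no treatment or a sham operation (not given per eye in the labels). All animals carried Aldh1l1-cre/ERT2+ and NuTRAP+ (the genotype field spells the driver Aldhl1l), had been given tamoxifen, and had the anaesthesia and pain relief of the operation, so both groups share these. Their age is not given. Cre is under the control of Aldh1l1, a gene of astroglial cells, and switches on NuTRAP, a reporter that puts GFP on ribosomes, which an antibody then collects. In the retina this driver is used for Müller glia, which reach across the whole thickness of the tissue, and retinal astrocytes can carry it as well. Each library pooled 2 retinae. ONC libraries came from pools 913/986, 914/92, 938/88, 976/978 and 981/982, and Control libraries from pools 914/92, 938/88, 976/978 and 981/982, which are therefore pairs of fellow eyes. For pool 913/986 the control eyes were not analysed here. Values per library are given in that order of pools throughout.

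Cadherins and protocadherins are calcium-dependent membrane proteins that bind the same or a related cadherin on the next cell. Neurexins of the presynaptic terminal bind neuroligins and LRRTM proteins of the postsynaptic membrane across the cleft, contactins are immunoglobulin-type proteins held by a lipid anchor, and calsyntenins are postsynaptic membrane proteins that carry cadherin repeats. In the retina, such molecules set which neurons contact one another in the synaptic layers, while N-cadherin (Cdh2) holds the junctions between Müller glia and photoreceptors. Most of these genes are best known from neurons, although glia also express some of them.

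The values are log2, each gene relative to its usual control level, so that 0 is near the control level of that gene and -1 is a 2-fold lower value. They carry no absolute level, so no gene can be called abundant or rare here, and the depth of the libraries is unknown. The medians of all genes lay between -0.01 and 0.01 in the ONC libraries and at 0.00 in the Control libraries. The SD over genes ran from 0.468 to 0.814 in ONC libraries and from 0.269 to 0.401 in Control libraries. Because the baseline is taken from the controls, their medians of 0.00 and part of their smaller SD follow from it. The 10 markers of Müller glia, the labelled cell type, were all measured, and their median per library lay between -0.22 and 0.50 in ONC libraries and between -0.48 and 0.25 in Control libraries. Markers of neurons were measured too, among them 13 of retinal ganglion cells, so the fraction held neuronal RNA. Because these are bulk samples, fewer cells of a type and less RNA per cell cannot be told apart. How much neuronal RNA came along with the labelled ribosomes was not measured, and a difference in this between the eyes was not tested. The driver gene Aldh1l1 was higher in ONC, by 0.68 ± 0.23 (SE, adjusted p = 0.165 in limma, 0.053 with animal pools as blocks).

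As a whole, the families were lower in the crushed eyes. The mean was lower in ONC for 89 of the 105 members, or 84.8%, against 50.1% of all genes, and the median difference was -0.37 over the members against -0.00062 over all genes. A total of 37 members were lower by more than 0.5, or 35.2%, against 9.71% of all genes, and 3 were higher by more than 0.5. In the 4 pools with both eyes, 51 members (48.6%) were lower in the ONC library of every pool, a pattern seen in 19% of all genes, and 4 (Cdh13, Cdh22, Pcdhb7 and Pcdhb9) were higher in every pool, against 17.9% of all genes. The ONC and Control values did not overlap in 11 members, all lower in ONC, or 10.5%, against 4.44% of all genes lower and 3.39% higher. Members that share exons or cell types are not independent of one another, and no test was made over the families.

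**Figure D1:**
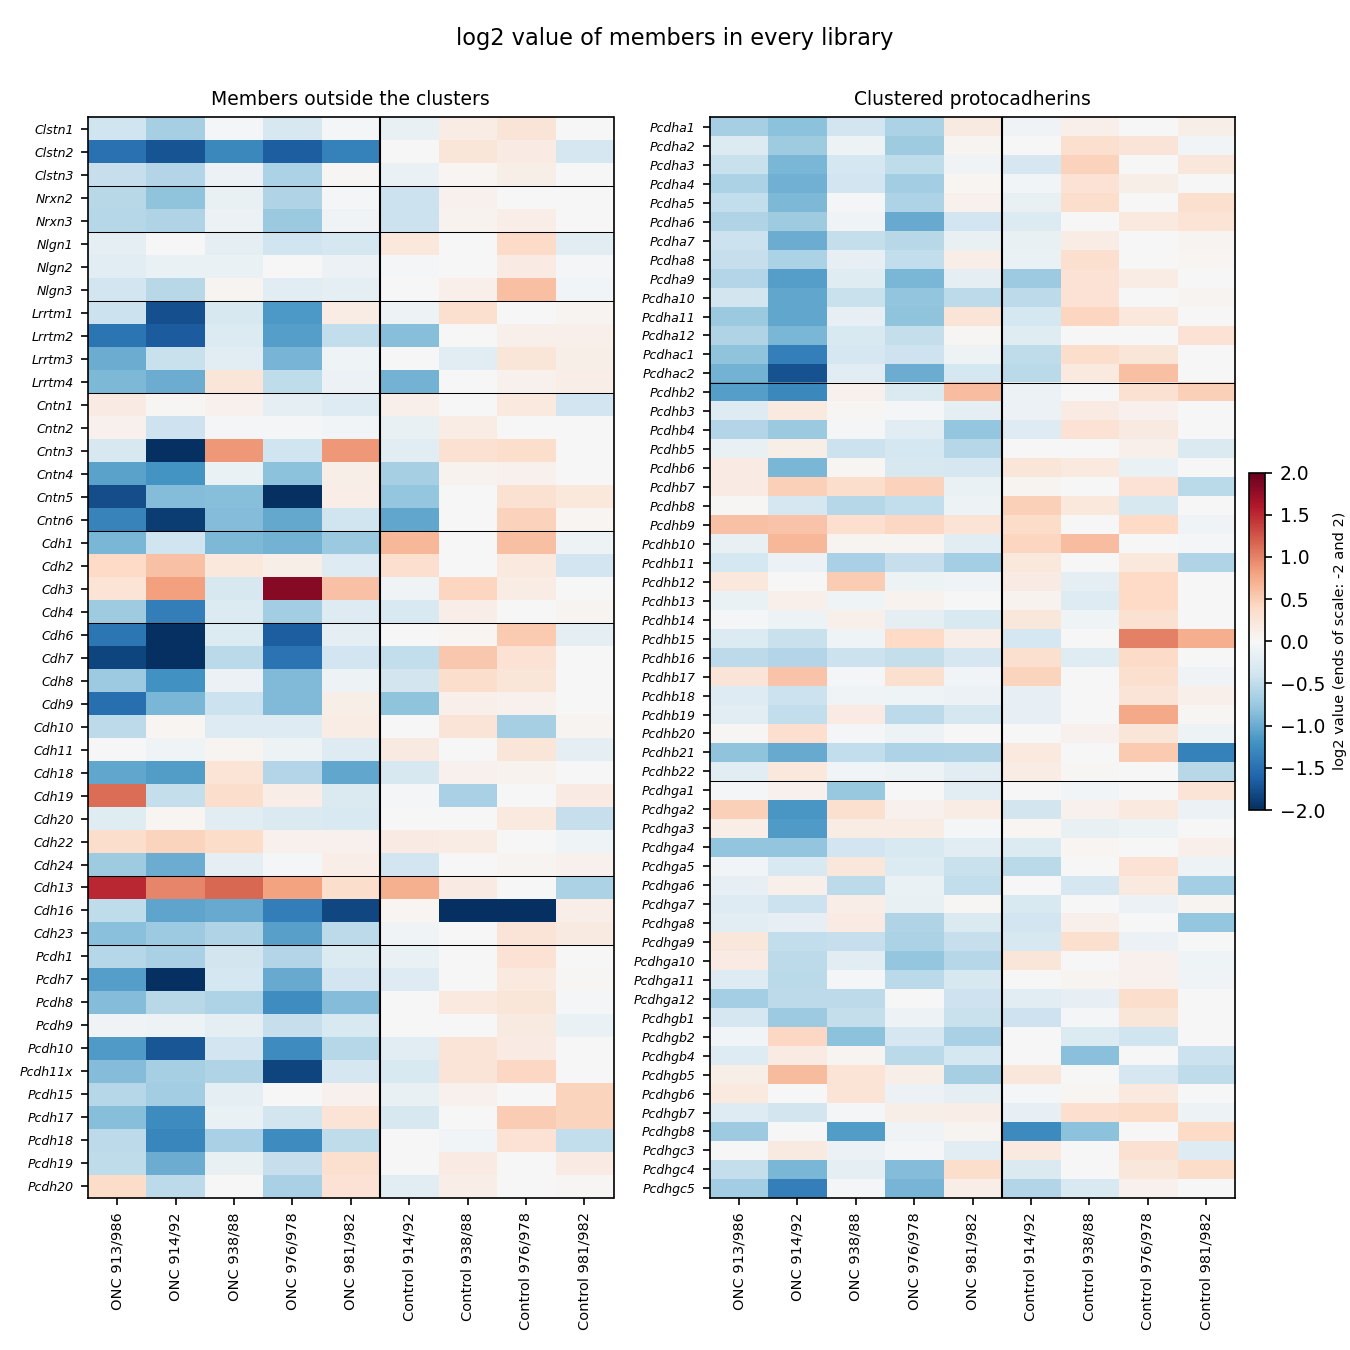
The log2 value of 104 members (rows, by family) is shown in each library (columns, ONC left of Control), in blue below 0 and in red above 0, with colours ending at -2 and 2. Blue prevails in all 5 ONC libraries, where 73 to 87 of the 105 members lay below 0, and in Control 914/92, where 63 did. Of the members, 38 (36.2%) lay below 0 in all 5 ONC libraries, against 16.0% of all genes. Clstn2, Cdh23, Pcdh8 and Cdh1 are among these members. The baseline puts a Control library at 0 for most genes, which limits how many Control values can lie below 0. Counts below 0 therefore cannot be compared between ONC and Control.

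With limma and Benjamini-Hochberg adjustment over all genes, 4 members passed an adjusted p of 0.05, and all 4 were lower in ONC: Clstn2, Cdh23, Pcdh8 and Cdh1. That is 3.81% of the members, against 0.648% of all genes called lower and 1.16% called in either direction (165 genes, 73 higher and 92 lower). No member was called higher, against 0.514% of all genes, and at an unadjusted p under 0.05 1 member, Cdh13, was higher, against 8.62% of all genes. At that unadjusted level 39 members were lower, or 37.1%, against 10.9% of all genes. The called count rests on the model. With a variance trend it was 3 members lower, without Cdh1, and 0 higher, against 0.162% and 0.19% of all genes. Each of these 3 had an adjusted p of 0.0497, just under the threshold. With animal pools as blocks the called count was 1 lower, Clstn2, and 0 higher, against 0.43% and 0.479%. With pools as blocks and a trend limma called 0 members and 0% of all genes, and 48 members and 3574 genes had an unadjusted p under 0.05. After quantile normalization it was 0 in either direction, against 0.134% lower and 0.0775% higher. Leaving out 1 library gave 1 to 5 called members, with Clstn2 among them each time.

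The promoters of the calsyntenins, and of the called genes Pcdh8 and Cdh23, are shown because the results turn on these genes. Each sequence runs 5′ to 3′ on the strand of its gene, from 250 bases before to 50 bases after a start in RefSeq annotation on GRCm38.p6, and 34 of the 105 members had one in that collection. Capitals mark 3 motifs that were searched on both strands after the sequences had been seen: the palindrome TGACGTCA (CRE), TATAAA, and the octamer ATGCAAAT, which reads ATTTGCAT on the opposite strand.
Clstn2, chr9:98033118-98033417, minus strand: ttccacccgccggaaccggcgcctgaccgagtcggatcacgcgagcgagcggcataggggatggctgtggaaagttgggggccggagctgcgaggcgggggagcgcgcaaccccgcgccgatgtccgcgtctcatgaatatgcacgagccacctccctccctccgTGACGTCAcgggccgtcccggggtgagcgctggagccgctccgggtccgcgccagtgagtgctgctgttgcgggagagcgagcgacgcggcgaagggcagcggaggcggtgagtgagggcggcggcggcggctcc
Clstn1, chr4:149586218-149586517, plus strand: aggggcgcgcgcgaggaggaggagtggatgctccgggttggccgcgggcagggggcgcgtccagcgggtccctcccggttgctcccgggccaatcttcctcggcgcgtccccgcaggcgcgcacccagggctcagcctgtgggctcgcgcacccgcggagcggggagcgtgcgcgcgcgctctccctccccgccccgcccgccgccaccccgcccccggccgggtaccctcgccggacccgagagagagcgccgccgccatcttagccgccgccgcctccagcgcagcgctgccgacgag
Clstn3, chr6:124464735-124465034, minus strand: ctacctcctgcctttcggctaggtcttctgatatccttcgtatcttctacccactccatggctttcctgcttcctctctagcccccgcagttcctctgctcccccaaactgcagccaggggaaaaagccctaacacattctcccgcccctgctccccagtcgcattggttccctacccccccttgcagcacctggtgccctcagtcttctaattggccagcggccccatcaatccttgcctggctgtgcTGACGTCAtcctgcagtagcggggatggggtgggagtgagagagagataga
Pcdh8, chr14:79771263-79771562, minus strand: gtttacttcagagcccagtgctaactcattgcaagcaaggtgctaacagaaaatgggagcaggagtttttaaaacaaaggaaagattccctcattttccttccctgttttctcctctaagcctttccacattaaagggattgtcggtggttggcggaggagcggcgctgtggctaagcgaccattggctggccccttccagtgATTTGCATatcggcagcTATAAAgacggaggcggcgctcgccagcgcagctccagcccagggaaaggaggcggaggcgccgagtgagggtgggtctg
Cdh23, chr10:60696441-60696740, minus strand: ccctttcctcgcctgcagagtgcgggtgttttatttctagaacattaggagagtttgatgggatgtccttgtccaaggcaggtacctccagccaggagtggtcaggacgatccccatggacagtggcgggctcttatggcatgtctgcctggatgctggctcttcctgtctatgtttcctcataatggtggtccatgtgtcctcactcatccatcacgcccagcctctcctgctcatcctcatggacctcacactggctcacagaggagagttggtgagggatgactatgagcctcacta
The Clstn2 window had 72.7% G and C with 43 CpG and holds the CRE at bases -85 to -78 from the start. The Clstn1 window had 79.7% G and C with 48 CpG, none of the 3 motifs, and a start 170 bases before that of the deposited gene model. The Clstn3 window, 1 of 2 starts listed, had 58.3% G and C with 8 CpG and holds the CRE across the start, at bases -1 to 6. The Pcdh8 window had 54.3% G and C with 14 CpG, the octamer at bases -47 to -40 and TATAAA at bases -30 to -25. The Cdh23 window had 54.0% G and C with 5 CpG and none of the 3 motifs. Over 32851 promoters of this length, TGACGTCA stood in 1.79%, TATAAA in 13.6% and the octamer in 1.74%, on either strand, and the medians were 52.7% G and C and 7 CpG. These matches describe the letters of the windows, and no binding was measured.

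Clstn2, calsyntenin-2, had values of -1.50, -1.73, -1.29, -1.65 and -1.35 in the ONC libraries, against 0.00, 0.24, 0.17 and -0.33 in the Control libraries. All 5 ONC libraries lay below all 4 Control libraries, with a gap wider than either group's own range. The gene (gene ID 64085, minus strand, chromosome 9 from 97444395 to 98033167 on mm10) fell by 1.52 ± 0.14 (SE) on the log2 scale, or was 2.87-fold lower, with an adjusted p of 0.0019 in limma. Within pools the difference ran from -1.82 to -1.02 and was negative in 4 of 4, and a fit with pools as blocks called it at an adjusted p of 0.0373. With a trend added to the blocks the call was lost, at an adjusted p of 0.0876. The adjusted p was 0.0497 with a trend and no block, and 0.0546 with quantile normalization. In the fit without trend or block no member had a larger difference.

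The other 2 calsyntenins were lower by less, and neither passed the test. Clstn1, which links vesicles to kinesin light chains, had -0.40, -0.66, -0.03, -0.33 and -0.03 in ONC libraries, against -0.14, 0.15, 0.25 and 0.00 in Control libraries. Clstn3, an adhesion protein reported to bind neurexins, had -0.47, -0.59, -0.12, -0.63 and 0.03 in ONC libraries, against -0.14, 0.03, 0.12 and 0.00 in Control libraries. In both genes pools 938/88 and 981/982 lay among the controls in ONC, which was not so for Clstn2. Their differences were -0.35 ± 0.15 (SE, adjusted p = 0.245) and -0.36 ± 0.15 (SE, adjusted p = 0.241). Whether the calsyntenins differ from one another in their change was not tested.

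**Figure D2:**
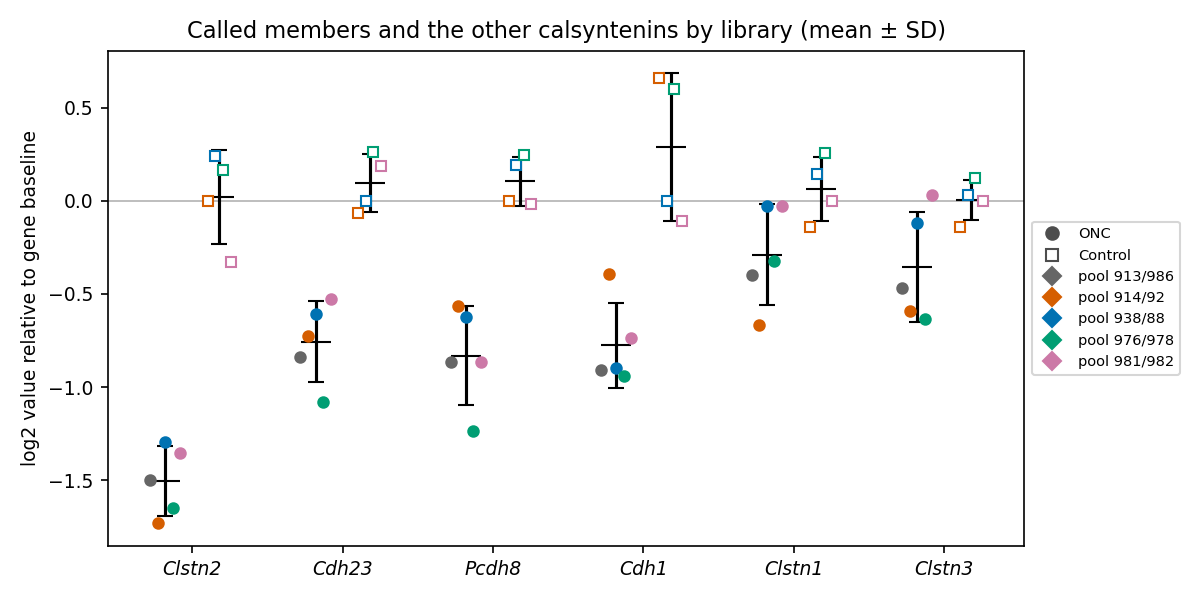
The log2 values of the 4 called members and of Clstn1 and Clstn3 are plotted by library, with ONC as filled circles left of Control as open squares, coloured by animal pool, and with mean ± SD (n = 5 and 4). ONC and Control are separate in Clstn2, Cdh23, Pcdh8 and Cdh1 and overlap in Clstn1 and Clstn3.

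Cdh23, known as a component of the tip links of inner ear hair cells and also present in retina, fell in ONC. Its values were -0.84, -0.72, -0.61, -1.08 and -0.53 in ONC libraries, against -0.06, 0.00, 0.26 and 0.18 in Control libraries, with no overlap. The difference was -0.85 ± 0.13 (SE, adjusted p = 0.0204 in limma, 0.0754 with the pool block), and ONC was lower in 4 of 4 pools. Its call was lost when ONC 913/986 or Control 938/88, 976/978 or 981/982 was left out. Cdh23 (gene ID 22295) lies on the minus strand of chromosome 10 from 60302750 to 60696490. The gene 4632428N05Rik, named Vsir in GENCODE, lies within it on the opposite strand with no shared exon, and had a difference of 1.28 ± 0.43 (SE, adjusted p = 0.171). Whether reads were counted by strand is not given in the sources used here. Pcdh15, the other tip link protein, had a difference of -0.37 ± 0.19 (SE, adjusted p = 0.309).

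Pcdh8, a protocadherin that neuronal activity induces and that takes N-cadherin off the surface of rat neurons, fell too. Its values were -0.87, -0.56, -0.62, -1.24 and -0.86 in ONC libraries, against 0.00, 0.19, 0.25 and -0.02 in Control libraries, and the groups did not overlap. The difference was -0.94 ± 0.15 (SE, adjusted p = 0.0207 in limma, 0.0748 with the pool block), and the call was lost without ONC 913/986, Control 938/88 or Control 976/978. The gene (gene ID 18530, minus strand, chromosome 14 from 79766772 to 79771312) shares exon sequence with an antisense transcript, Gm9748, and reads of the 2 strands may not have been told apart.

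Cdh1, E-cadherin, is the classical cadherin of epithelia. It had -0.91, -0.39, -0.90, -0.94 and -0.74 in ONC libraries, against 0.66, 0.00, 0.60 and -0.11 in Control libraries. The Control libraries spread more than in the 3 genes above, and the lowest Control value stood 0.28 above the highest ONC value. The difference was -1.06 ± 0.20 (SE), at an adjusted p of 0.0438 in limma and 0.0646 with the pool block. The call was lost when any of the ONC libraries other than 914/92, or any Control library other than 981/982, was left out.

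In each of these 4 genes all 5 ONC libraries were low. The 4 were picked by the test, which favours genes with a small spread within groups, so this pattern follows in part from the choice. The median over the markers of retinal ganglion cells, whose axons the crush damages, was also low in all 5. Of 13 markers 12 were lower in ONC and 7 were called lower (5 with the pool block). For this and the next lists, the shares of all genes called were 0.648% lower and 0.514% higher. With the pool block they were 0.43% and 0.479%. Medians of the ganglion cell markers per library were -0.65, -0.89, -0.68, -1.19 and -0.77 in ONC and 0.10, 0.08, 0.00 and -0.24 in Control. The ganglion cell transcription factor Pou4f2 had 1 of the larger differences, -1.52 ± 0.18 (SE, adjusted p = 0.0057). Other markers of the list hardly differed or went the other way, with -0.07 ± 0.16 for Thy1, -0.02 ± 0.11 for Stmn2 and 0.21 ± 0.17 for Slc17a6 (SE). Markers of microglia and leukocytes were higher in ONC for 10 of 10, with 3 called (Cd52, Cd68 and S100a9, of which S100a9 alone was called with the pool block) and a median difference of 1.28. The median of horizontal cell markers was below 0 in all 5 ONC libraries as well. In ONC 981/982 it was -0.48, near the -0.44 of Control 914/92, and the marker Lhx1 was 0.70 in ONC 938/88. These markers were lower in 4 of 4 measured genes, with a median difference of -0.97, and Calb1 was called (adjusted p = 0.0494 in limma, lost with the pool block). Their medians per library were -1.63, -1.79, -0.90, -1.34 and -0.48 in ONC and -0.44, 0.14, 0.25 and 0.00 in Control. The part of any of these lists in the adhesion results was not tested.

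The alpha protocadherins, LRRTM genes and contactins, of which none was called, had another order of libraries. Their medians were low in ONC 913/986, 914/92 and 976/978, nearer to 0 in ONC 938/88 and 981/982, and low in Control 914/92, the fellow eyes of the lowest ONC pool. The 8 amacrine and 7 bipolar markers, which were lower in ONC in 8 of 8 and 7 of 7 with none called, had that order too. Amacrine medians per library were -0.55, -0.73, 0.08, -0.65 and 0.14 in ONC and -0.45, 0.21, 0.02 and 0.00 in Control. Bipolar medians were -0.62, -0.97, -0.17, -0.43 and 0.05 in ONC and -0.44, 0.00, 0.04 and 0.17 in Control. The 8 photoreceptor markers were also all lower, with a median difference of -0.43 and none called. Over all genes the SD was 0.673, 0.814, 0.544, 0.558 and 0.468 in the ONC libraries, and 0.393, 0.269, 0.301 and 0.401 in the Control libraries. Among the ONC libraries the widest spread was thus in ONC 914/92 and 913/986, which were also low here. These values stand beside each family below, and their part in it was not tested.

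**Figure D3:**
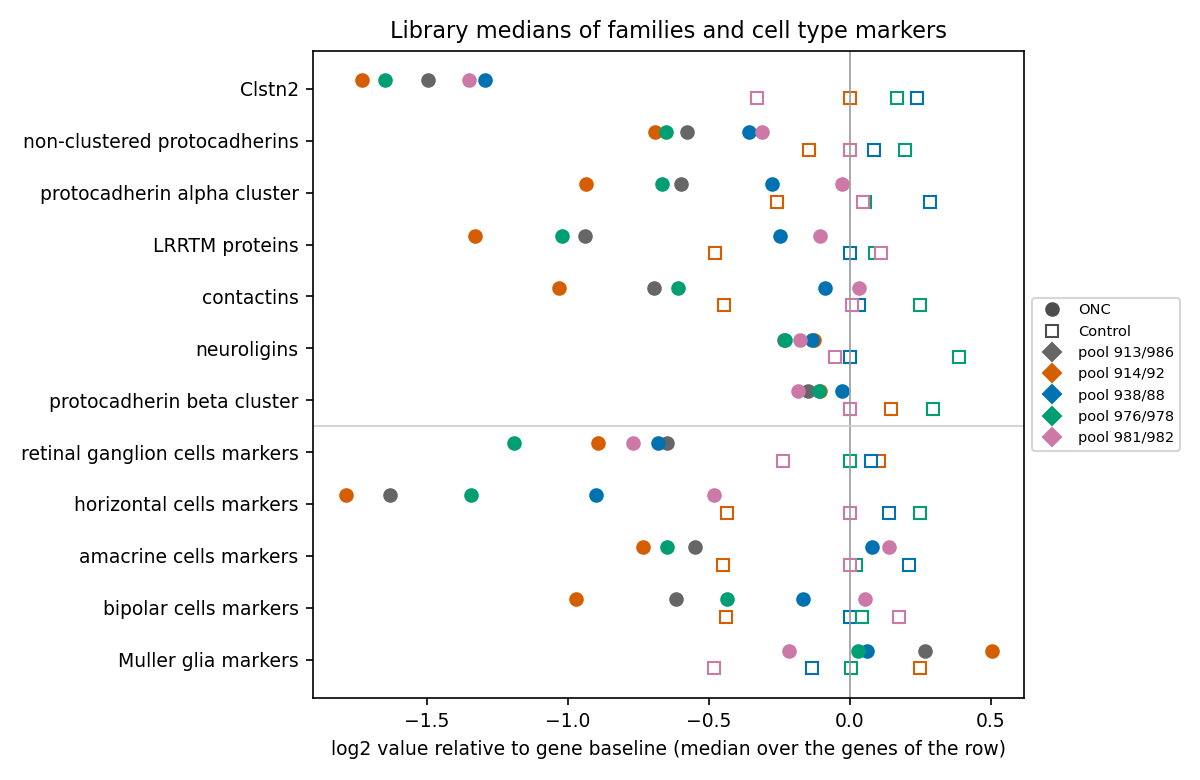
The median log2 value per library (x axis) is plotted for Clstn2, 6 families and 5 marker lists (rows), with ONC as filled circles above Control as open squares, coloured by animal pool. Clstn2 and the median of ganglion cell markers are low in all 5 ONC libraries. The LRRTM, contactin and alpha protocadherin medians in ONC 938/88 and 981/982 lie near those of the controls.

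Among the neurexins, presynaptic organizers, Nrxn3 had -0.58, -0.60, -0.11, -0.74 and -0.08 in ONC libraries, against -0.43, 0.06, 0.13 and 0.00 in Control libraries. ONC 938/88 and 981/982 lay among the controls and the other 3 ONC libraries lay below them. The difference of Nrxn3 was -0.36 ± 0.18 (SE, adjusted p = 0.293). Nrxn2 had -0.55, -0.80, -0.15, -0.60 and -0.02 in ONC libraries, against -0.43, 0.09, 0.00 and 0.02 in Control libraries, with the same libraries low. Its difference was -0.34 ± 0.18 (SE, adjusted p = 0.324), and both genes were lower in ONC in 4 of 4 pools.

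Among the neuroligins, the differences were -0.32 ± 0.14 for Nlgn1, which acts at excitatory synapses, -0.15 ± 0.08 for Nlgn2, which acts at inhibitory synapses, and -0.42 ± 0.17 for Nlgn3 (SE). None passed, with adjusted p of 0.258, 0.336 and 0.217. Nlgn3 had -0.38, -0.55, 0.05, -0.23 and -0.18 in ONC libraries, against 0.00, 0.10, 0.61 and -0.05 in Control libraries, and the single high value was Control 976/978.

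The LRRTM genes encode postsynaptic ligands of neurexins at excitatory synapses, and all 4 were lower, with a median difference of -0.67 and none called. Lrrtm2 had -1.46, -1.66, -0.27, -1.11 and -0.48 in ONC libraries, against -0.86, 0.00, 0.10 and 0.10 in Control libraries. The values of ONC 938/88 and 981/982 overlapped with Control 914/92, yet ONC was lower within each of the 4 pools, with differences of -1.20 to -0.27. The difference was -0.83 ± 0.33 (SE, adjusted p = 0.216). Lrrtm1 had a difference of -0.77 ± 0.35, Lrrtm3 of -0.58 ± 0.21 and Lrrtm4 of -0.27 ± 0.31 (SE), with adjusted p of 0.263, 0.185 and 0.630. Lrrtm1 lies within Ctnna2 and Lrrtm2 within Ctnna1, on opposite strands, and these hosts had differences of -0.72 ± 0.19 and 0.13 ± 0.14 (SE).

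The 6 contactins split in size, and none was called. Cntn5, which marks some direction-selective ganglion cells and their partners, had -1.77, -0.87, -0.85, -2.74 and 0.13 in ONC libraries, against -0.78, 0.00, 0.30 and 0.21 in Control libraries. Cntn6, of the same subgroup, had -1.34, -1.90, -0.86, -1.02 and -0.40 in ONC libraries, against -1.04, 0.00, 0.46 and 0.04 in Control libraries. Both ranged widely in ONC, and the groups overlapped. Their differences were -1.15 ± 0.52 (SE, adjusted p = 0.265) and -0.97 ± 0.36 (SE, adjusted p = 0.191), and Cntn4 had -0.49 ± 0.30 (SE, adjusted p = 0.379). Cntn1, a partner of Cntnap1 at the edge of nodes of Ranvier, had a difference of -0.02 ± 0.14 (SE), and Cntn2, known as TAG-1, of -0.09 ± 0.12 (SE). Cntn3 varied most between ONC libraries, with 0.87 and 0.86 in pools 938/88 and 981/982 and -2.13 in pool 914/92. Its difference was -0.33 ± 0.56 (SE, adjusted p = 0.751), and without both libraries of pool 914/92 that of Cntn3 was 0.03 and that of Cntn1 0.0068.

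**Figure D4:**
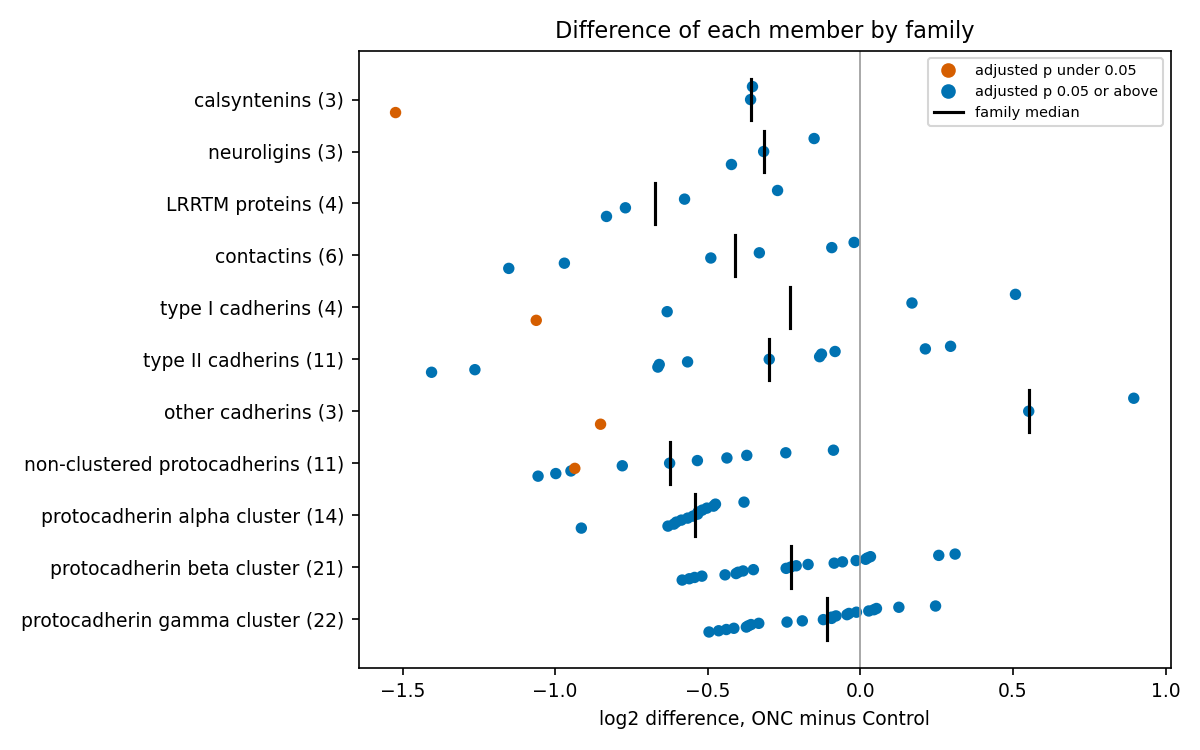
The difference ONC minus Control (log2, x axis) is plotted for each member of 11 families (rows, with the number of members), and a vertical bar marks the family median. All members lie below 0 in the calsyntenins, neuroligins, LRRTM genes, contactins, non-clustered protocadherins and alpha protocadherins, and Cdh13 lies highest at 0.90.

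The 4 type I cadherins went apart. Beside Cdh1, R-cadherin (Cdh4) had a difference of -0.63 ± 0.23 (SE, adjusted p = 0.186). N-cadherin (Cdh2), the classical cadherin of neural tissue and of Müller glia junctions, had 0.39, 0.58, 0.21, 0.11 and -0.27 in ONC libraries, against 0.34, 0.00, 0.20 and -0.39 in Control libraries. The groups overlapped, although ONC 913/986 and 914/92 lay above all controls, and the difference was 0.17 ± 0.20 (SE, adjusted p = 0.636). P-cadherin (Cdh3), known from the pigment epithelium, had a difference of 0.51 ± 0.37 (SE, adjusted p = 0.446), and 1 library, ONC 976/978 at 1.81, stood far above the others.

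Type II cadherins were lower in 9 of 11, with a median of -0.30 and none called. Cdh7 had -1.84, -2.35, -0.54, -1.47 and -0.38 in ONC libraries, against -0.49, 0.55, 0.30 and 0.00 in Control libraries. Cdh6, which marks some direction-selective ganglion cells in mouse, had -1.44, -2.27, -0.28, -1.65 and -0.18 in ONC libraries, against 0.00, 0.05, 0.53 and -0.17 in Control libraries. In both genes 3 ONC libraries were far below the controls and the other 2 lay next to them. The differences were -1.40 ± 0.42 (SE, adjusted p = 0.135) and -1.26 ± 0.43 (SE, adjusted p = 0.167). Cdh8 and Cdh9, which guide bipolar cell axons to their layer in mouse, had -0.66 ± 0.26 and -0.57 ± 0.32 (SE). Cdh11, a cadherin first known from mesenchyme, had -0.13 ± 0.11 (SE), and Cdh22 had 0.21 ± 0.11 (SE) and was higher in 4 of 4 pools. Cdh18 had -0.66 ± 0.28 (SE) and passed the threshold when ONC 938/88 was left out.

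Cdh13, T-cadherin, has a lipid anchor in place of a cytoplasmic tail, and it had the largest positive difference of the members. Its values were 1.51, 0.98, 1.15, 0.80 and 0.36 in ONC libraries, against 0.71, 0.17, 0.00 and -0.63 in Control libraries. ONC was higher within 4 of 4 pools, by 0.27 to 0.99, although the ranges of the groups overlapped through Control 914/92. The difference was 0.90 ± 0.29 (SE, adjusted p = 0.162, and 0.0808 with the pool block), so it did not pass. Markers of Müller glia were higher in 8 of 10 with a median difference of 0.09, and those of astrocytes in 3 of 4 with 0.42, and none of them was called. With the pool block 2 of the 10 Müller glia markers, Crym and Vim, were called higher, against 0.479% of all genes. The part of these markers in the value of Cdh13 was not tested. Cdh16, known from kidney, passed the filter on low values in 1 condition only. It had Control values of -4.31 and -2.68 in pools 938/88 and 976/978, so its difference of 0.55 ± 0.87 (SE) has little precision.

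The non-clustered protocadherins were lower in 11 of 11, with a median difference of -0.62, and 9 of 11 were lower in every pool, against 19% of all genes. The groups did not overlap in 6 of them, all lower, against 4.44% of all genes. Next to Pcdh8, Pcdh10 had -1.13, -1.71, -0.38, -1.26 and -0.56 in ONC libraries, against -0.23, 0.25, 0.16 and 0.00 in Control libraries. All ONC values were below all Control values, by a margin of 0.15. The difference was -1.06 ± 0.26 (SE, adjusted p = 0.0942). Pcdh1, a protocadherin found in epithelia and neural tissue, had a narrow spread in ONC, with -0.58, -0.65, -0.37, -0.58 and -0.28, against -0.13, 0.00, 0.29 and 0.00 in Control libraries. Its difference of -0.53 ± 0.12 (SE) had an adjusted p of 0.0738. Pcdh7, Pcdh11x and Pcdh18 had differences of -1.0 ± 0.35, -0.95 ± 0.29 and -0.78 ± 0.23 (SE), with adjusted p of 0.176, 0.145 and 0.131. Their groups did not overlap either, but by smaller margins of 0.096, 0.029 and 0.011. Those with the smallest differences were Pcdh20 at -0.09 ± 0.23, Pcdh9 at -0.24 ± 0.11 and Pcdh15 at -0.37 ± 0.19 (SE). In the same libraries the family medians were -0.58, -0.69, -0.36, -0.65 and -0.31 in ONC and -0.14, 0.09, 0.19 and 0.00 in Control.

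The clustered protocadherins lie in a row on chromosome 18 in 3 clusters. In neurons each cell picks a few of their promoters, and the resulting proteins let a neuron tell its own branches from those of others. In alpha and gamma each variable exon is joined to constant exons that all genes of the cluster share, which shows in the deposited models: the 14 alpha models end within 3 bases of one another and the 22 gamma models within 9 bases. How reads of the constant exons were divided among the genes is not given, so values within alpha or gamma are not independent and may blend into one another. Beta genes have no such constant exons, although Pcdhb21 and Pcdhb22 overlap in exon sequence on the same strand.

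The alpha cluster was lower in 14 of 14, with a median difference of -0.54 and none called. The 12 numbered genes lay in a narrow band from -0.61 to -0.38, and Pcdhac2, the last variable gene of the cluster, had the largest difference at -0.91 ± 0.33 (SE, adjusted p = 0.187). Pcdha7, with the smallest p of the cluster, had -0.43, -0.99, -0.48, -0.55 and -0.14 in ONC libraries, against -0.16, 0.15, 0.00 and 0.05 in Control libraries. Its difference was -0.53 ± 0.16 (SE, adjusted p = 0.136), and the lowest Control value, pool 914/92, lay just below the highest ONC value. Medians of the 14 genes per library were -0.60, -0.94, -0.27, -0.67 and -0.03 in ONC and -0.26, 0.29, 0.06 and 0.05 in Control. All 14 were below 0 in ONC 913/986, 914/92, 938/88 and 976/978 and 7 in ONC 981/982. In Control 914/92 13 were below 0, and 0, 0 and 1 in the other Control libraries. The baseline puts 1 Control library at 0 for most genes, which limits how many Control values can lie below 0. No such limit holds in ONC, so these counts cannot be compared between the groups. With ONC 981/982 left out, Pcdha1 and Pcdha4 passed the threshold.

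The beta cluster was lower in 16 of 21, with a median of -0.23 and a range from -0.58 to 0.31. Pcdhb16 had -0.53, -0.58, -0.43, -0.47 and -0.34 in ONC libraries, against 0.32, -0.24, 0.38 and 0.00 in Control libraries. It was the clustered gene without overlap between the groups, at -0.58 ± 0.14 (SE, adjusted p = 0.0841). Pcdhb7 and Pcdhb9 went the other way, with differences of 0.31 ± 0.19 and 0.26 ± 0.13 (SE), and both were higher in 4 of 4 pools. Neither passed, with adjusted p of 0.374 and 0.30. Pcdhb12 and Pcdhb20 stood at 0.02 ± 0.16 and -0.01 ± 0.11 (SE), among the smallest differences of all members.

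The gamma cluster was lower in 17 of 22, with the smallest median of the 3 clusters, -0.11. By subfamily, 10 of 12 Pcdhga genes were lower with a median of -0.17, 4 of 7 Pcdhgb genes with a median of -0.01, and 3 of 3 Pcdhgc genes with a median of -0.37. Pcdhga11 had the smallest p of the cluster, at -0.36 ± 0.12 (SE, adjusted p = 0.164). Pcdhgb5 had the largest positive difference, 0.25 ± 0.26 (SE, adjusted p = 0.589), and Pcdhgb6 stood at -0.01 ± 0.12 (SE). Pcdhgc3, a gamma isoform that astrocytes are also known to express, had 0.02, 0.17, -0.11, -0.03 and -0.22 in ONC libraries, against 0.20, 0.00, 0.31 and -0.26 in Control libraries. Pcdhgc4 had -0.48, -0.91, -0.18, -0.87 and 0.35 in ONC libraries, against -0.29, 0.00, 0.23 and 0.37 in Control libraries. Pcdhgc3 kept close to 0 in all 9 libraries, whereas Pcdhgc4 was low in the same ONC libraries as the alpha genes. Their differences of -0.09 ± 0.13 and -0.50 ± 0.27 (SE) did not pass the test, and the difference between them was not tested.

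**Figure D5:**
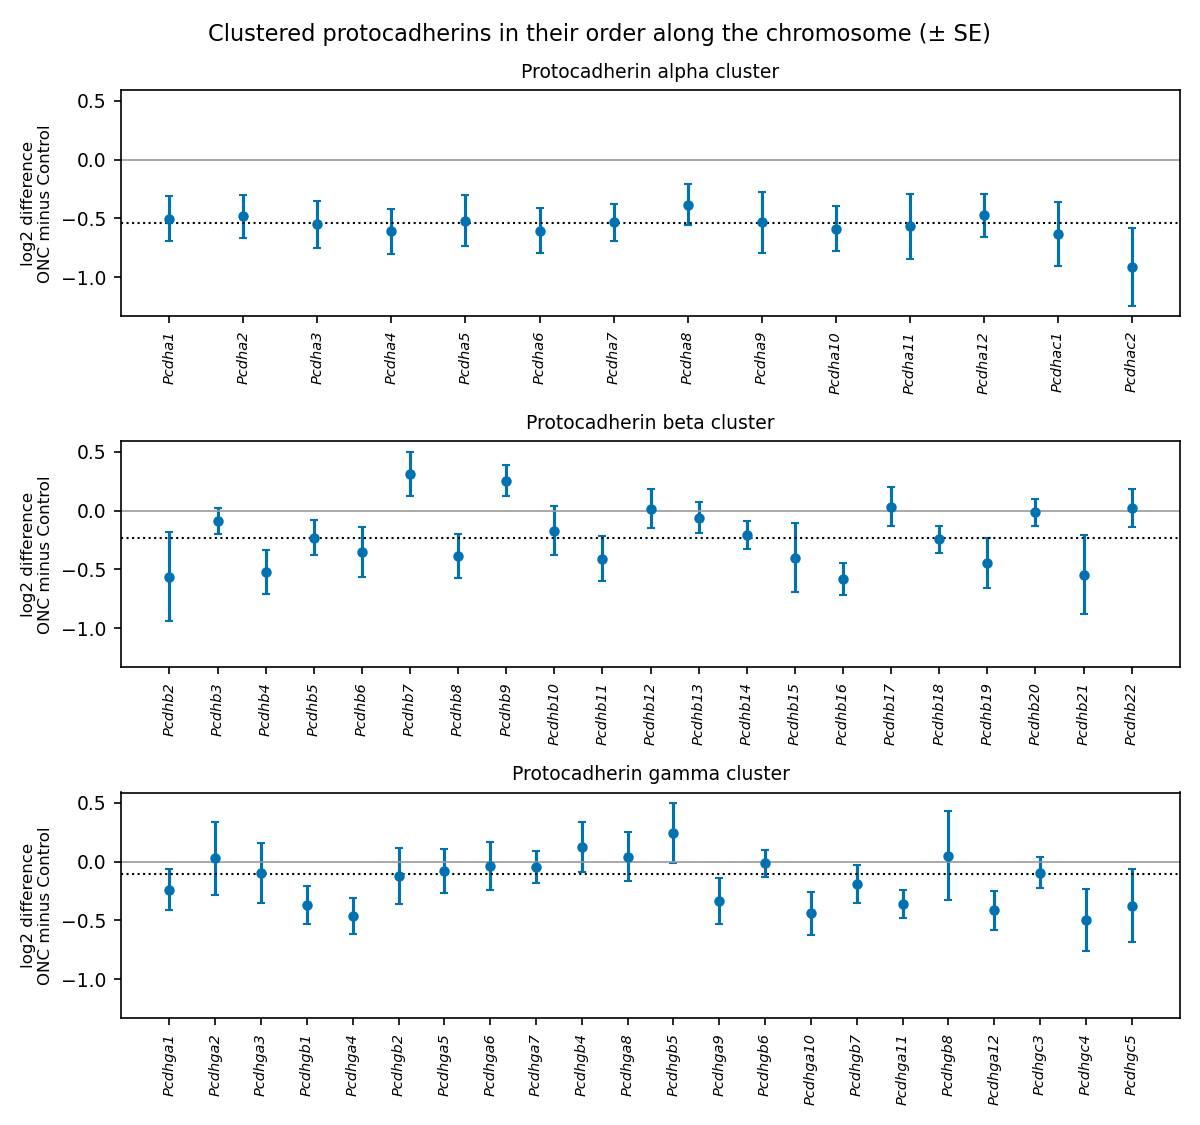
The difference ONC minus Control (log2, y axis, ± SE, n = 5 and 4) is plotted for each gene of the alpha, beta and gamma clusters in its order along the chromosome, and a dotted line marks the cluster median. The 14 alpha genes lie together near their median of -0.54, while the beta and gamma genes scatter about 0 and below.

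Partners of these proteins were read from 6 lists with 97 of 103 genes measured, of which 81 were lower in ONC, with a median of -0.30. Shank3, a postsynaptic scaffold, was the 1 partner of 97 called, a share near the 0.648% of all genes called lower. It had -1.23, -1.60, -0.88, -1.19 and -0.45 in ONC libraries, against 0.00, -0.02, 0.00 and 0.25 in Control libraries, without overlap. The difference was -1.13 ± 0.21 (SE, adjusted p = 0.0438), and the adjusted p was 0.0629 with the pool block. Of the 20 neurexin partners and scaffolds 19 were lower, with a median of -0.43. The catenins and cadherin regulators, which work inside most cells, had 6 of 10 lower and a median of -0.03, with the neuronal alpha-catenin Ctnna2 at -0.72 ± 0.19 (SE, adjusted p = 0.111) and the widely expressed Ctnna1 at 0.13 ± 0.14 (SE).

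In the other 4 lists none was called without the block. Leucine-rich repeat and receptor phosphatase organizers had 22 of 25 lower, with the smallest p for Lrfn5 at -0.90 ± 0.22 (SE, adjusted p = 0.0894, and 0.0486 with the pool block). Immunoglobulin adhesion proteins and their partners had 21 of 24 lower. The smallest p was that of Cntnap1, the partner of Cntn1, at -0.98 ± 0.20 (SE, adjusted p = 0.0575). Giant and seven-pass cadherins had 6 of 8 lower, with the smallest p for Fat3, which shapes amacrine dendrites in mouse, at -1.23 ± 0.32 (SE, adjusted p = 0.100, and 0.0341 with the pool block). Among the partners of calsyntenins and the kinesin motors they bind, 7 of 10 were lower, and the neuronal heavy chain Kif5a had -0.85 ± 0.17 (SE, adjusted p = 0.0518). Kinesin light chain Klc1, which binds Clstn1, had 0.01 ± 0.09 (SE).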

How the data were processed

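Ribosome-bound retinal RNA of 9 pools of 2 retinae was analysed (5 ONC, 4 Control), grouped by the treatment label. The authors deposited 1 normalized table, and per the file headers it keeps genes with raw values of 5 to 298892.188 in 100% of libraries of at least 1 of 2 conditions. Of the members, 104 passed in both and 1, Cdh16, in 1. The headers name no scale. The log2 scale of the deposited values and their control baseline were inferred from the numbers, since 13230 genes have exactly 1 control at 0. DESeq, with no version, and mm10 are named in the submitters' processing notes, and RefSeq models in the headers. For the aligner, the counter and strand, nothing is given in the sources used here.

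ONC was set against Control for every gene in limma 3.58.1 (R 4.3.3), two-sided, without trend or block, and adjusted by the Benjamini-Hochberg method over 14194 entries at a threshold of 0.05. No trend was used because such values carry no level and their mean follows the difference under test; with a trend 50 genes were called in place of 165. The fit was tested on simulated data. P-values of the fit without block measure the spread between libraries within each group and do not use the pairing of fellow eyes. Fellow eyes share animals, so pools 914/92, 938/88, 976/978 and 981/982 are pairs, and the deviations of their 2 eyes correlated at 0.377, 0.178, -0.064 and 0.450 across genes. Libraries of different pools correlated at -0.489 to 0.409, so the pairing rests on the animals and not on these values. The fit with the pool as a block is given where it changes a call.

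Members, families, marker and partner lists and the test were chosen with earlier results of these data known. The clustered protocadherins were described as alpha, beta and gamma. Named by rule were 37 members: Clstn2, called members, the smallest p per family and direction, the calsyntenins, contactins, neurexins, neuroligins, LRRTM genes and type I cadherins, Cdh16, and the 3 smallest differences. Named partners were those called and the smallest p per list. Other genes named, among them Ctnna1, Klc1, Pou4f2, Crym and Vim, were chosen after their values were seen. Another member is not reported here. The genes Ptprd, Cntnap3, Cntnap5c, Ctnna3, Fat2, Dchs2, Sept4 and Mog were not analysed here. Alternatives were a trend, the pool block, subtracted medians, quantile normalization, genes that passed the filter in both conditions, and each library left out. Leaving out both libraries of pool 914/92 was chosen after seeing the data. Promoters came from RefSeq on GRCm38.p6, and gene coordinates from the deposited table.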

Additional observations from a re-analysis of the deposited data

Results flagged for a closer look

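Of 74 groups of values of the 37 named members by rule, 7 had 1 library far from the others of its group, where chance gives about 1 in 20. In 4 of the 7 this was Control 914/92, which was low for Cntn4 at -0.66, Nrxn2 at -0.43, Lrrtm4 at -0.95 and Lrrtm2 at -0.86, while the nearest other control stood at 0.00 for each. ONC 914/92 stood apart for Cntn2 at -0.41, with the nearest other ONC library at -0.05, and for Pcdhb20 at 0.33, with the nearest at 0.02. Control 976/978 stood apart for Nlgn2 at 0.17, with the nearest at 0.00. Pool 914/92 thus gave 6 of the 7, and its ONC library also had the widest spread over all genes, with an SD of 0.814 on the log2 scale.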

How the results depend on the processing

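The 4 called members (Clstn2, Cdh23, Pcdh8 and Cdh1) kept their direction under every alternative. The same 4 were called with library medians subtracted, with genes that passed the filter in both conditions alone, and without both libraries of pool 914/92. The count of called members was 1 with the animal pool as a replicate block and no trend, 0 with block and trend, and 0 after quantile normalization; the block leaves 3 residual degrees of freedom in place of 7. Over all genes 50 were called with a trend, 30 after quantile normalization (1842 at an unadjusted p under 0.05, 31 of them members), 102 with the stricter filter and 0 with block and trend in limma, where 3574 genes had an unadjusted p under 0.05. With 1 library left out the called members numbered 1 to 5 and all genes 62 to 234. The members lower without overlap numbered 11 to 31 and those higher 0 to 1, and over all genes 687 to 1510 lower and 520 to 1205 higher, since fewer libraries overlap less often. Small differences turned sign: Cntn3 0.034 and Cntn1 0.0068 without pool 914/92, and Pcdhb12 -0.0090 with the block and -0.043 after quantile normalization. With 1 library left out, Cdh16 ran from -0.32 to 1.17, Cntn1 from -0.14 to 0.053, Cntn3 from -0.60 to 0.15, Pcdhb12 from -0.084 to 0.12, Pcdhb20 from -0.085 to 0.049 and Pcdhgb6 from -0.071 to 0.041. Family medians moved to -0.40 for neuroligins and -0.29 for the beta cluster after quantile normalization, and for the 3 other cadherins (Cdh13, Cdh16, Cdh23) to 0.022 with the stricter filter and 1.11 without pool 914/92. Their ranges with 1 library left out were -0.43 to -0.22 for neuroligins, -0.81 to -0.49 for non-clustered protocadherins, -0.32 to 1.11 for the other cadherins and -0.27 to -0.16 for the beta cluster. The causes were not tested. Depth is unknown, so counting error cannot be set beside these values.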
